A study of Mus musculus with 22 samples.

Results

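The genes described here are 10 genes of bone morphogenetic protein (BMP) signalling, taken from a table of 34489 genes by their symbols and followed through all 22 libraries. They are the ligand gene Bmp4, the receptor gene Bmpr1a, the receptor-activated SMAD genes Smad1 and Smad5, the inhibitory SMAD genes Smad6 and Smad7, and the target genes Id1, Id2, Id3 and Msx2. All 10 had enough reads to be tested. The list was chosen with earlier results of these data known.

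The libraries are bulk RNA-seq of mouse pluripotent cells taken along a reversion from the primed to the naive state. Primed epiblast stem cells (mEpiSCs) of the lines Oct4GIP, which carries an Oct4-driven GFP and puromycin resistance transgene, and 129/MSM gave 1 library each. Oct4GIP cells in Basal medium, in Basal medium with 2iL (MEK and GSK3 inhibitors with LIF), with the AMPK activator AICAR, or with that activator and LIF (AICAR+LIF) were sampled as whole cultures on day 8 (d8) and day 16 (d16), giving 4 libraries at each day. Cultures treated with activators were then moved into 2iL. Reverted Oct4GIP cells were sampled after 2 and 3 passages there (d16+2p and d16+3p; AICAR or AICAR+LIF, 4 libraries) and after 10 passages (d16+10p). The d16+10p libraries were 5 of Oct4GIP, reverted by AICAR, AICAR+LIF, A769662, A769662+LIF or metformin+LIF, and 2 of 129/MSM, reverted by AICAR or AICAR+LIF. A Rex1-GFP line of naive mouse embryonic stem cells (mESCs) gave the remaining library. Each combination of line, treatment, day and passage was sequenced once, and a p-value therefore sets a difference against a spread that holds treatments, passages and lines as well as chance.

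BMP ligands bind pairs of type I and type II serine/threonine kinase receptors, and the type I receptor phosphorylates SMAD1, SMAD5 and SMAD9, which enter the nucleus with SMAD4. ID proteins are helix-loop-helix proteins without a DNA-binding region that hold E proteins away from DNA, and Id genes are among the most direct targets of the pathway, as are Smad6 and Smad7, whose products limit it. In mESCs, BMP signalling with LIF is known to sustain self-renewal through ID proteins, whereas in epiblast cells it is known to favour mesoderm and germ cell fates and to hold back neural fate.

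Levels are in CPM, read counts scaled to a common library total with TMM factors. Totals ranged from 438771 counts (AICAR+LIF d8) to 5290163 (Basal d16), so 1 count was worth at most 1.98 CPM. The summed level of 7 naive markers was 3564.81 to 5173.16 CPM at d16+10p, 2993 to 3422.09 at d16+2-3p and 4394.7 in naive mESCs, against 13.7 to 79.2 in primed cells and cultures. The shared pluripotency genes Pou5f1, Sox2 and Nanog summed to 133 to 317 CPM in the d8 and d16 cultures and to 576 or more in every other library. These 3 did not move together: against primed cells, 1 was higher in the cultures and 2 were lower (edgeR, adjusted p under 0.05). Of all genes tested there, 18.1% were higher and 19.4% lower. Cultures stood on mouse embryonic fibroblasts, and the summed level of 14 feeder and mesenchymal genes was 3317.3 to 3829.22 CPM at d8 and 6156.99 to 52720.9 at d16. It was 73.2 to 214 at d16+2-3p, 136 to 300 at d16+10p, 139 in primed Oct4GIP and 765 in primed 129/MSM. Of these 14 genes, 0 or 1 was at 0 in each culture and in primed 129/MSM, against 2 to 7 in the remaining libraries. They are called feeder genes below, but they do not tell feeders from mesenchymal cells that may have arisen in the cultures. Neural markers summed to 976 to 4001.61 CPM at d8 and 553 to 985 at d16, and endothelial markers to 40.4 to 249 at d16, against 66.4 or less elsewhere. In bulk RNA, fewer cells of a type and less RNA per cell cannot be told apart, and the part of these other cells in the results below was not tested except where a value is given.

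A pair of promoter stretches is shown first because they hold the sequence GGCGCC, a known GC-rich element of BMP-responsive promoters. RefSeq windows of the 250 bases before the transcription start (GRCm38.p6) were found for 8 of the 10 genes, and GGCGCC, a palindrome and so the same on both strands, was in a window of Id2, Bmpr1a and Smad5 and in 9.59% of all 32851 windows. The Id2 stretch lies at chr12:25096306-25096335 and the Bmpr1a stretch at chr14:34502727-34502756, both on the minus strand and outside annotated exons, with GGCGCC in capitals. The element begins 231 bases before the RefSeq start of Id2 and 198 before that of Bmpr1a, but both stretches lie inside the span of the GENCODE gene model, which reaches further 5′ than the RefSeq start.
Id2: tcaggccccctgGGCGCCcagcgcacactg
Bmpr1a: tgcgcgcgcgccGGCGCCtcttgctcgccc
On GRCm38 the genes lie at chr14:46383520-46390669 (Bmp4), chr14:34410734-34503341 (Bmpr1a), chr2:152736251-152737410 (Id1), chr12:25093799-25097140 (Id2) and chr4:136143497-136145755 (Id3). The match in Smad5 fell in an annotated exon and is not printed. The shorter SMAD-binding letters GTCT, searched on both strands, were in 82.9% of all windows and are too common to set these genes apart. A match is a description of the letters, not of binding.

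The Id genes were the members with the widest range. The summed level of Id1, Id2 and Id3 was 4.8 CPM in primed Oct4GIP and 134 in primed 129/MSM, 222 to 292 at d8, 598 to 812 at d16, 46.9 to 71.6 at d16+2-3p, 5.9 to 29.0 at d16+10p and 15.9 in naive mESCs. Against primed cells, the d8 and d16 cultures had 5 members higher (Bmpr1a, Smad5, Id2, Id3, Msx2) and 1 lower (Smad7) at an adjusted p under 0.05, where 37.5% of the 18739 genes tested passed, 18.1% higher and 19.4% lower. Between d8 and d16, 5 members rose (Bmp4, Bmpr1a, Id1, Id2, Id3), where 31.2% of 14026 genes passed and 18.1% rose. From d16 to d16+2-3p, 8 members fell and Smad7 rose, where 71.1% of genes passed, 37.9% lower and 33.2% higher. The median over all genes tested in that comparison was -0.15 (log2). From d16+2-3p to d16+10p, Smad1 rose and Id3 fell, where 9.35% of genes passed, 4.75% higher and 4.61% lower. Against primed cells, the d16+10p cells had 5 members lower (Bmpr1a, Smad1, Smad5, Id1, Id2) and 0 higher, where 36.6% passed, 19.9% lower and 16.7% higher. Read against those shares, the counts of members are descriptions. These comparisons share libraries and are not independent of one another. Both comparisons with primed cells depended on a group of 1 library per line, while all cultures were Oct4GIP. From primed to d16+10p, Id1, Id2 and Id3 changed by -0.42, 1.41 and 4.58 (log2) within Oct4GIP. Within 129/MSM they changed by -4.93, -5.54 and -2.94. Against primed Oct4GIP alone, the cultures differed by 5.14 for Id1, 2.72 for Msx2 and -0.58 for Smad7.

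**Figure D1:**
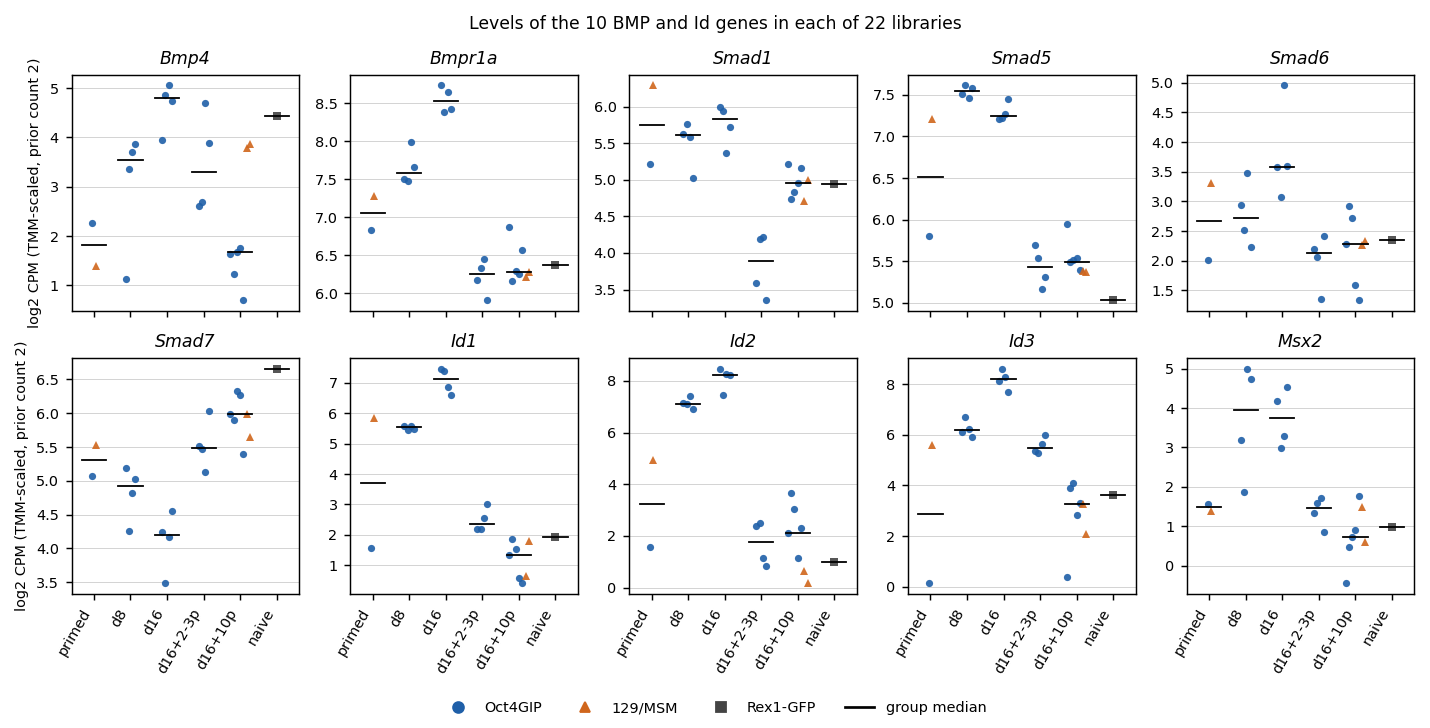
Level of each of the 10 genes (log2 CPM, TMM-scaled, prior count 2) in each of the 22 libraries, by group, with circles for Oct4GIP, triangles for 129/MSM, squares for the naive line and a black bar at the group median. Id1, Id2 and Id3 are highest at d16 and low at d16+10p, and the triangle of primed 129/MSM stands well above the circle of primed Oct4GIP for these 3 genes.

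**Figure D2:**
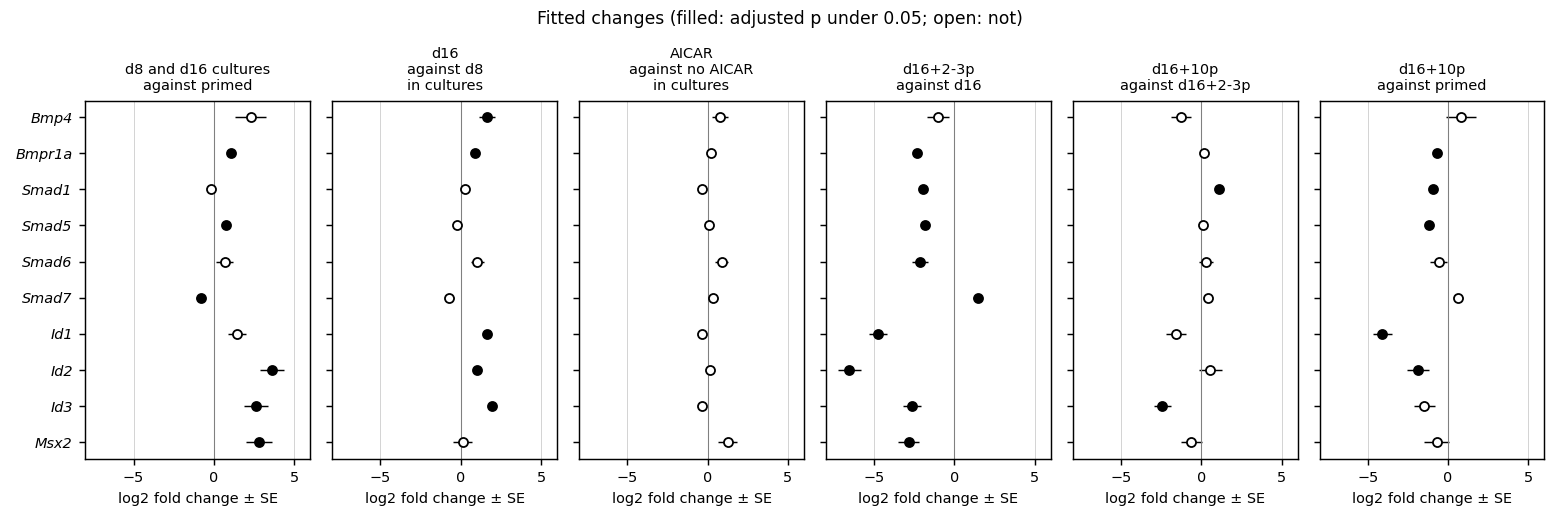
Fitted log2 fold change (horizontal axis, ± SE) of each gene in 6 comparisons, filled where the adjusted p was under 0.05 and open where not. The 3 Id genes lie to the right in d16 against d8 and far to the left in d16+2-3p against d16, Smad7 lies on the opposite side in the latter, and all points are open for AICAR.

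Bmp4, which encodes a secreted ligand of the pathway, was low in primed cells. Primed Oct4GIP held 4.06 CPM and primed 129/MSM 1.90. The cultures held 1.45 (Basal), 9.57 (2iL), 12.3 (AICAR) and 13.9 (AICAR+LIF) at d8. In the same order they held 14.8, 28.2, 32.6 and 26.1 at d16. Every d16 culture was above every d8 culture, and Basal was the lowest at each day. The d8 levels rested on 4, 23, 13 and 7 counts in that order. The nearest values of the 2 days, 13.9 (AICAR+LIF d8) and 14.8 (Basal d16), lay close. The fitted rise from d8 to d16 was 1.61 ± 0.51 (log2 ± SE, adjusted p = 0.0413, edgeR), and leaving out any 1 of 6 of the 8 cultures took the adjusted p above 0.05 (0.0590 to 0.0823). Against primed cells the cultures differed by 2.29 ± 0.96 (adjusted p = 0.0674).

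After the move into 2iL, Bmp4 separated by passage and by line. It was at 5.35 (AICAR) and 5.72 CPM (AICAR+LIF) after 2 passages and at 25.1 and 14.1 after 3. The d16+10p libraries of Oct4GIP held 0.896 to 2.65 CPM (median 2.36, n = 5), and those of 129/MSM 13.1 and 13.8. The ranges of the lines did not overlap, and naive mESCs, at 20.9 CPM, lay above both. The difference of the d16+10p group from d16+2-3p did not pass (-1.26 ± 0.63, adjusted p = 0.236), but within Oct4GIP alone the fall passed (-2.67, adjusted p = 0.00708). Gene models on the opposite strand overlap Bmp4 (Gm15217, Gm15222) and Bmpr1a (Gm17110), and whether the counting used strand is not given in the sources used here.

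Bmpr1a encodes a type I BMP receptor and was abundant in every library. It stood at 113 CPM in primed Oct4GIP and 155 in primed 129/MSM, at 180.4, 178, 254 and 202 at d8 (Basal, 2iL, AICAR, AICAR+LIF) and at 426, 333, 399 and 342 at d16. The 3 sets were ordered without overlap. The cultures were 1.04 ± 0.21 above primed cells (adjusted p = 0.000642), and d16 was 0.91 ± 0.17 above d8 (adjusted p = 0.00672).

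In the reverted cells Bmpr1a was at 71.3, 79.7, 86.7 and 59.6 CPM at d16+2-3p (AICAR d16+2p, AICAR+LIF d16+2p, AICAR d16+3p, AICAR+LIF d16+3p) and between 71.3 and 116 at d16+10p (median 77.1, n = 7), beside 82.5 in naive mESCs. It fell by 2.34 from d16 to d16+2-3p (SE 0.18, adjusted p = 1.02e-09), and d16+10p lay 0.69 (log2, SE 0.19) below primed cells (adjusted p = 0.00745). The latter rested on primed 129/MSM, since within Oct4GIP the difference was -0.39 ± 0.25 (adjusted p = 0.268).

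Smad1 and Smad5 encode the SMADs that BMP receptors phosphorylate. Smad5 was at 181, 195, 175 and 190.4 CPM at d8 (Basal, 2iL, AICAR, AICAR+LIF) and at 147, 148, 153 and 174 at d16. It was lower at d16 in 4 of 4 treatments, a difference that did not pass (-0.24 ± 0.12, adjusted p = 0.173). Primed 129/MSM held 147 CPM, within the range of the cultures, and primed Oct4GIP 55.3, near the 35.3 to 51.1 of d16+2-3p and the 40.5 to 60.8 of d16+10p (median 44.3). Smad5 fell by 1.86 from d16 to d16+2-3p (SE 0.21, adjusted p = 1.83e-07). Its rise in cultures against primed cells (0.74 ± 0.24, adjusted p = 0.0187) became 0.21 (adjusted p = 0.510) without primed Oct4GIP.

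Smad1 was at 31.7 to 53.7 CPM at d8 and 40.7 to 63 at d16, with overlap, and did not pass in either culture comparison. Its lowest levels were those of d16+2-3p, at 11.3, 17.6, 17.9 and 9.52 CPM, which lay below every other library. At d16+10p it was at 25.4 to 36.6 (median 30.2), around the 29.9 of naive mESCs and, except in the AICAR library, below the 36.5 of primed Oct4GIP and the 77.6 of primed 129/MSM. It fell by 1.95 from d16 to d16+2-3p (SE 0.25, adjusted p = 8.72e-07) and rose by 1.11 ± 0.23 from there to d16+10p (adjusted p = 0.00411). This rise held with each of the 4 d16+2-3p and 7 d16+10p libraries left out in turn.

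The inhibitory SMAD genes moved in opposite directions between d16 and d16+2-3p. Smad7, whose product blocks receptors of both the BMP and TGF-β branches, held 32.8 CPM in primed Oct4GIP, 45.6 in primed 129/MSM, 18.3 to 35.9 at d8, 10.5 to 22.7 at d16, 34.2 to 64.9 at d16+2-3p, 41.5 to 79.7 at d16+10p and 101 in naive mESCs. The 11 reverted libraries all lay above the 4 d16 cultures. Smad7 rose by 1.45 ± 0.26 from d16 to d16+2-3p (adjusted p = 5.93e-05), the one member to do so. It was lower in cultures than in primed cells (-0.84 ± 0.28, adjusted p = 0.0218), which did not pass against primed Oct4GIP alone (-0.58 ± 0.38, adjusted p = 0.255), and lower at d16 than at d8 in 4 of 4 treatments without passing (-0.72 ± 0.28, adjusted p = 0.0812). With the 4 treatments as a block, the fall of Smad7 from d8 to d16 passed (-0.73, adjusted p = 0.0430), as did a rise of Smad6 (1.05, adjusted p = 0.0428, beside 1.02 and 0.0874 without the block). Smad6, whose product acts mainly on the BMP branch, stayed between 1.79 and 11.3 CPM in 21 of 22 libraries, and AICAR d16 held 30.4. It fell by 2.13 from d16 to d16+2-3p (SE 0.48, adjusted p = 0.000570).

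Id1 rose with time in culture. It was at 47.6, 43.3, 47.5 and 43.6 CPM at d8 (Basal, 2iL, AICAR, AICAR+LIF), almost the same in the 4 treatments, and at 176, 165, 115 and 97.0 at d16. Every d16 library was above every d8 library, by 2.22 to 3.82 times within a treatment, and at d16 both cultures with AICAR were below both without. The fitted rise from d8 to d16 was 1.61 ± 0.20 (adjusted p = 0.00184). In primed cells Id1 was at 2.21 CPM (6 counts) in Oct4GIP and 56.1 in 129/MSM, the latter above all 4 d8 cultures. The cultures differed from the 2 primed libraries by 1.43 ± 0.58 (adjusted p = 0.0559), and from primed Oct4GIP alone by 5.14 ± 0.64 (adjusted p = 1.43e-05).

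Id1 was at 3.86, 3.82, 5.10 and 7.40 CPM at d16+2-3p and at 0.597 to 2.93 at d16+10p (median 1.77), where no library held more than 9 counts. Naive mESCs, at 3.11 CPM, lay between these groups. The fall from d16 to d16+2-3p was -4.77 ± 0.57 (adjusted p = 3.09e-07), and the further difference to d16+10p did not pass (-1.55 ± 0.61, adjusted p = 0.120). It passed in the fit of Oct4GIP alone, the line of all 4 d16+2-3p libraries (-1.61, adjusted p = 0.0113), in that of only the groups compared (adjusted p = 0.0149) and by DESeq2 (adjusted p = 0.0461).

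Id2 was the member with the largest fall. It was at 140.1, 136, 170.0 and 119 CPM at d8 (Basal, 2iL, AICAR, AICAR+LIF) and at 356, 173, 303 and 295 at d16, and fell to 4.46, 4.96, 1.46 and 1.06 at d16+2-3p (AICAR d16+2p, AICAR+LIF d16+2p, AICAR d16+3p, AICAR+LIF d16+3p). The 2iL culture gained least between days, 1.27 times, against up to 2.54 times in Basal medium, and the d8 and d16 sets did not overlap. The rise from d8 to d16 was 1.0 ± 0.22 (adjusted p = 0.0113; 0.0715 without the 3 libraries of lowest total), and the fall to d16+2-3p was -6.53 ± 0.70 (adjusted p = 8.00e-08). The cultures were 3.60 ± 0.75 above primed cells (adjusted p = 0.000928), where Id2 was at 2.21 CPM in Oct4GIP and 30.1 in 129/MSM. It was at 1.25 CPM in naive mESCs and 0.393 to 12.04 at d16+10p (median 3.54).

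Id3 was lower at d16+2-3p than at d16, and lower again at d16+10p. It was at 68.6, 104, 74.1 and 59.5 CPM at d8 (Basal, 2iL, AICAR, AICAR+LIF), at 280.0, 392, 306 and 206 at d16, and at 40.7, 38.2, 48.5 and 63.1 at d16+2-3p. The rise within a treatment was 3.47 to 4.14 times between days, and the sets did not overlap. The fitted changes were 1.97 ± 0.22 from d8 to d16 (adjusted p = 0.00134) and -2.64 ± 0.58 from d16 to d16+2-3p (adjusted p = 0.000425). At d16+10p Id3 was at 0.590 to 16.4 CPM (median 9.01), all below the d16+2-3p libraries, a fall of -2.42 ± 0.53 (adjusted p = 0.00585). The cultures were 2.62 ± 0.75 above primed cells (adjusted p = 0.00944), and without primed Oct4GIP 1.66 above (adjusted p = 0.0609). The lowest of the 7 d16+10p libraries was AICAR Oct4GIP with 1 count, and naive mESCs held 11.5 CPM.

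Per kilobase of exon (GENCODE M21), the level of Id3 at d16+2-3p was 21.3 to 35.2 CPM per kb, against 3.29 to 6.38 for Id1 and 0.434 to 2.03 for Id2. At d16 the same scale gave 115 to 219 for Id3, 83.7 to 152 for Id1 and 70.9 to 146 for Id2. The 3 genes thus overlapped at d16 and were apart, in the order Id3, Id1, Id2, at d16+2-3p. Bmpr1a, at 9.38 to 13.7 CPM per kb, lay between Id3 and Id1 there.

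Msx2, which encodes a homeodomain repressor and is a BMP target in mesoderm and neural crest, was at 8.35, 2.91, 31.3 and 25.8 CPM at d8 (Basal, 2iL, AICAR, AICAR+LIF) and 17.4, 7.24, 9.08 and 22.3 at d16. The days overlapped, and both d8 cultures with AICAR were above both without. Primed cells, reverted cells and naive mESCs held at most 2.69 CPM, and AICAR d16+10p held 0 counts, which allows up to 1.77 CPM. Msx2 was 2.83 ± 0.81 above primed cells in the cultures (adjusted p = 0.00938), with 6 counts in each primed library, and fell by 2.85 from d16 to d16+2-3p (SE 0.64, adjusted p = 0.000529). Leaving out either primed library took the culture comparison above 0.05 (adjusted p = 0.0698 and 0.0794).

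**Figure D3:**
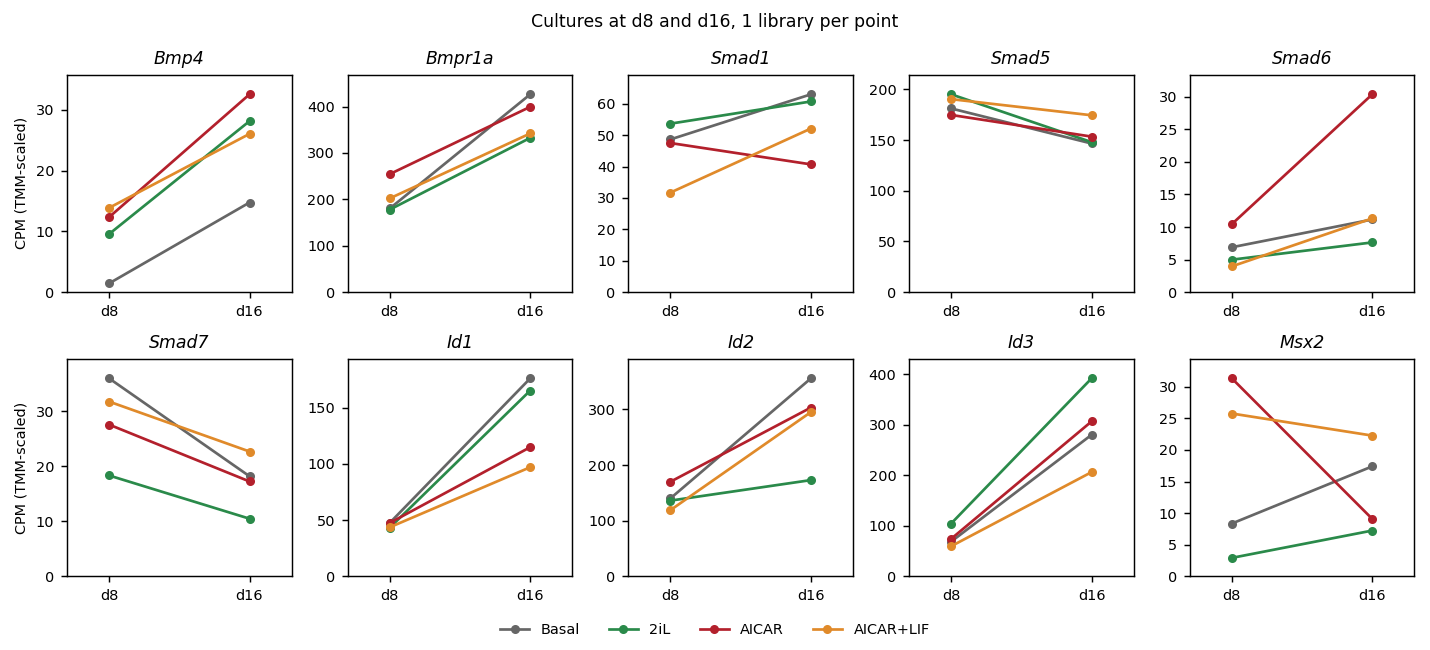
Level (CPM, TMM-scaled, axis from 0) of each gene at d8 and d16, 1 line per treatment and 1 library per point. Bmp4, Bmpr1a, Smad6, Id1, Id2 and Id3 are higher at d16 in 4 of 4 treatments, Smad5 and Smad7 are lower in 4 of 4, and the Msx2 lines cross. The share of all genes that moved 1 way in 4 of 4 was not counted.

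The AICAR comparison asked whether cultures with the activator (AICAR, AICAR+LIF) differed from those without (Basal, 2iL) at the same day. Only the side without AICAR held MEK and GSK3 inhibitors, in its 2iL cultures, so AICAR was not the only difference. In the fit with a term for the day, 0 of the 10 members passed, where 9.60% of 14026 genes did (3.54% higher, 6.06% lower). By edgeR 0 members had an unadjusted p under 0.05, and DESeq2 also called 0. The fitted differences nearest to the threshold were Smad6 at 0.88 ± 0.41 (adjusted p = 0.188), Msx2 at 1.25 ± 0.58 (adjusted p = 0.191) and Smad1 at -0.34 ± 0.17 (adjusted p = 0.223), and the Id genes lay at -0.34 ± 0.20 (Id1), 0.18 ± 0.22 (Id2) and -0.34 ± 0.22 (Id3). The difference in the effect of AICAR between d16 and d8, tested by the interaction term of edgeR, passed for 0 members and for 0.200% of genes. Members with an unadjusted p under 0.05 there were 2, Id1 (-0.88 ± 0.26, adjusted p = 0.184) and Msx2 (-2.20 ± 0.89, adjusted p = 0.302). Within a day, by the same edgeR fit, 0 members passed at d8 or at d16, where 9.51% and 2.65% of genes did. Nearest to the threshold were Msx2 at d8 (2.47 ± 0.68, adjusted p = 0.0594) and Id1 at d16 (-0.73 ± 0.17, adjusted p = 0.0633). Both d8 libraries with AICAR were shallow (956357 and 438771 counts), which limits what could be detected.

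The primed libraries of the 2 lines differed most in the Id genes. The ratio of primed 129/MSM to primed Oct4GIP was 25.3 for Id1 (95% counting interval 11.4 to 70.0), 13.6 for Id2 (6.02 to 38.0) and 131 for Id3, which had 1 count in Oct4GIP (23.1 to 5189). Smad5 stood at 2.66 (2.21 to 3.22), Smad1 at 2.13 (1.68 to 2.71), Smad6 at 2.77 (1.28 to 6.65), Bmpr1a and Smad7 at 1.37 and 1.39, and the intervals of Bmp4 and Msx2 included 1. These intervals cover counting error only, with 1 library on each side. Per the study's methods, 129/MSM mEpiSCs were kept on feeders with serum replacement and Oct4GIP mEpiSCs on fibronectin without serum, so line and culture condition cannot be told apart. The summed feeder genes of primed 129/MSM were at 765 CPM, below the 3317.3 to 3829.22 of the d8 cultures. Its Id1 was above those cultures (56.1 against 43.3 to 47.6 CPM). Its Id2 (30.1 against 119 to 170) and Id3 (48.2 against 59.5 to 104) were below them. Mesendoderm markers moved with the Id genes between the primed libraries. The summed level of 8 of them was 509 CPM in primed 129/MSM, with only Mesp1 at 0, against 20.7 in primed Oct4GIP, with Mesp1 and Sox17 at 0, and it was 5.81 to 76.4 in the d8 and d16 cultures. Their part in the difference was not tested.

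The change from primed to d16+10p was set against the line. In a fit with primed and d16+10p split by line, the change in 129/MSM minus that in Oct4GIP passed for 4 members, all lower, where 1.38% of genes passed and 1.05% were lower. It was -1.62 ± 0.32 for Smad5 (adjusted p = 0.0130), -4.51 ± 0.91 for Id1 (adjusted p = 0.0157), -6.95 ± 1.31 for Id2 (adjusted p = 0.0102) and -7.51 ± 1.45 for Id3 (adjusted p = 0.0117). The median over all genes was -0.09, and each primed side is 1 library, which the fit assumes to vary like the other groups. The values therefore compare these 2 primed libraries, and nothing measures the spread among primed cultures of a line. Over both lines, d16+10p lay below primed cells by -4.09 ± 0.59 for Id1 (adjusted p = 1.59e-05) and -1.86 ± 0.67 for Id2 (adjusted p = 0.0345), and without primed 129/MSM these differences were -0.39 (adjusted p = 0.708) and 1.0 (adjusted p = 0.549).

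The tests within a line rest on the same assumption. Within 129/MSM, 6 members were lower at d16+10p than in its 1 primed library, where 18.0% of genes passed and 10.1% were lower, namely Bmpr1a (-1.04 ± 0.28), Smad1 (-1.46 ± 0.34), Smad5 (-1.85 ± 0.23), Id1 (-4.93 ± 0.55), Id2 (-5.54 ± 0.91) and Id3 (-2.94 ± 0.68), with adjusted p from 5.30e-06 to 0.0135. Id2 held 3 counts over both 129/MSM d16+10p libraries, a ratio of 0.0200 to primed (95% counting interval 0.00405 to 0.0602). Within Oct4GIP 1 member passed, Id3, which was higher (4.58 ± 1.35, adjusted p = 0.0148), where 30.1% of genes passed and 15.1% were higher. With 1 count in primed Oct4GIP, the ratio from summed counts was 28.1 with a counting interval from 4.96 to 1117. The 5 Oct4GIP d16+10p libraries held 0.590 to 16.4 CPM of Id3 against 0.369 in primed, and 4 of them lay well above it.

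At d16+10p itself the lines differed in 1 member, Bmp4 (129/MSM against Oct4GIP, 2.75 ± 0.63, adjusted p = 0.0191), where 3.07% of genes passed and 1.96% were higher. Without either 129/MSM library the adjusted p was 0.135 and 0.166. Id2 lay at 0.820 and 0.393 CPM in 129/MSM and 1.51 to 12.04 in Oct4GIP, without overlap and without passing (-3.21 ± 0.92, adjusted p = 0.0654). Against primed Oct4GIP alone, the d8 and d16 cultures had 5 members higher and 0 lower, where 31.7% of genes passed and 16.1% were higher, with Id1 at 5.14 ± 0.64, Id2 at 6.47 ± 0.88, Smad5 at 1.62 ± 0.23 and Bmpr1a at 1.29 ± 0.28. The Id3 ratio there, from 1 primed count, was 603 (counting interval 108 to 23841), and the median over all genes was 0.17.

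**Figure D4:**
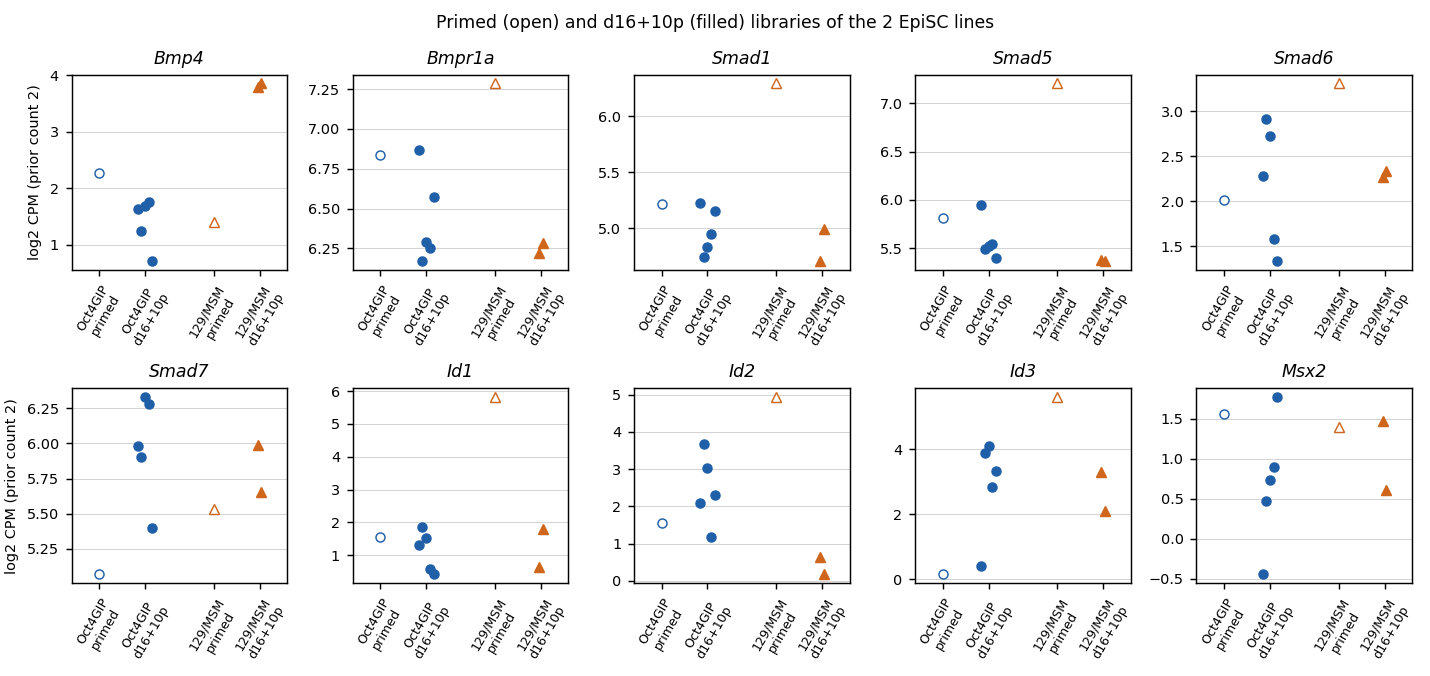
Level (log2 CPM, prior count 2) of each gene in primed (open) and d16+10p (filled) libraries of Oct4GIP (circles) and 129/MSM (triangles). Primed 129/MSM stands far above the other libraries for Id1, Id2, Id3 and Smad5, and for Bmp4 the 129/MSM d16+10p libraries stand above the rest.

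The levels of most members were related to those of the feeder genes across the study. Over the 22 libraries the Pearson r of log2 CPM with the log2 summed feeder genes was 0.67 to 0.94 for 8 members, among them Id1 (0.90), Id2 (0.94), Id3 (0.76) and Smad5 (0.90), 0.39 for Bmp4 and -0.82 for Smad7. Over the 8 cultures it was 0.77 for Id1, 0.46 for Id2, 0.86 for Id3, 0.68 for Bmp4 and 0.67 for Bmpr1a, and negative for Smad5 (-0.67), Smad7 (-0.77) and Msx2 (-0.15). These libraries fall into separate states and days that differ in feeders, treatment and time at once, so the values are descriptions. Within the 4 d16 cultures the summed feeder genes spanned 8.56 times from Basal to 2iL. The highest and lowest library differed 1.36 times in the sum of Id1, Id2 and Id3. For single members this span was 1.19 (Smad5), 1.28 (Bmpr1a), 1.55 (Smad1), 1.82 (Id1), 1.90 (Id3) and 2.06 (Id2). It was 2.17 for Smad7, 2.21 for Bmp4, 3.08 for Msx2 and 3.97 for Smad6. Basal d16, with the lowest sum of these genes on that day, had the highest Id1 and Id2. The 2iL d16 culture, with the highest sum, had the highest Id3. The part of feeders in these levels was not tested.

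**Figure D5:**
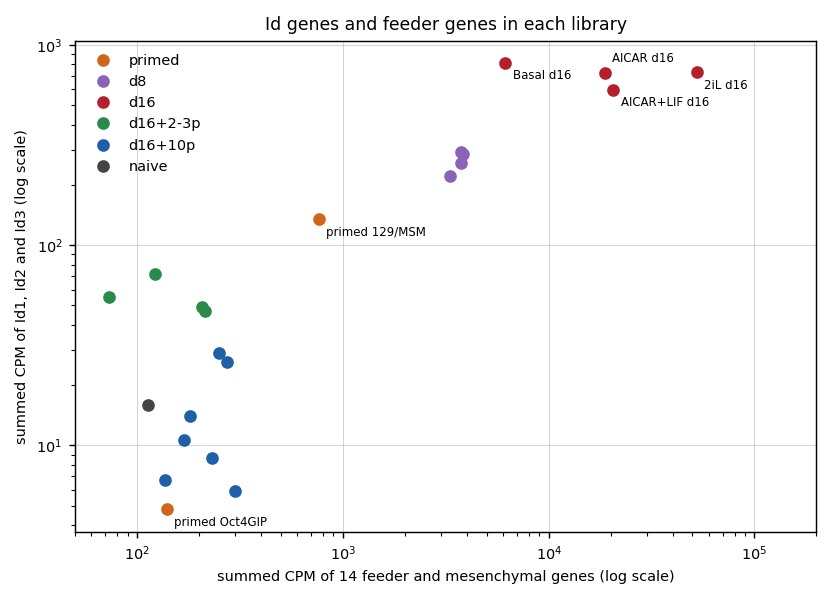
Summed CPM of Id1, Id2 and Id3 (vertical, log scale) against summed CPM of 14 feeder and mesenchymal genes (horizontal, log scale), 1 point per library coloured by group. The d16 points lie at 6156.99 to 52720.9 CPM on the horizontal axis and 598 to 812 CPM on the vertical. The d16+2-3p and d16+10p points differ in height and lie between 73.2 and 300 CPM on the horizontal axis.

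Among the 65 other BMP pathway genes listed, 56 were tested in the comparisons of states and 46 in the cultures. In cultures against primed cells 24 of 56 were higher and 6 lower, beside 18.1% and 19.4% of all genes, with a median of 1.24 (log2) over the 56 beside 0.04 over all genes. From d8 to d16, 16 of 46 rose and 7 fell, beside 18.1% and 13.1% of all genes. From d16 to d16+2-3p, 42 of 56 fell and 7 rose, beside 37.9% and 33.2% of all genes (median -3.09 beside -0.15). From there to d16+10p 6 rose and 0 fell, beside 4.75% and 4.61%. At d16+10p 4 were higher and 21 lower than in primed cells, beside 16.7% and 19.9% (median -0.70 beside -0.01). That count depended on the primed library, with 5 higher and 8 lower within Oct4GIP (beside 15.1% and 14.9%, median -0.08) and 3 higher and 17 lower within 129/MSM (beside 7.87% and 10.1%, median -0.95). The fall at d16+2-3p took in 9 of 10 ligands, 7 of 9 receptors and co-receptors, 5 of 8 SMADs and regulators, 12 of 13 extracellular inhibitors and 7 of 13 target genes tested.

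Id4, the remaining Id gene, was also high in the cultures. It was at 0.738 and 3.49 CPM in the primed libraries, 27.8 to 75.5 at d8, 83.8 to 271 at d16, 3.64 to 8.81 at d16+2-3p and 7.77 to 20.0 at d16+10p, beside 12.1 in naive mESCs. It rose in cultures against primed cells (5.50 ± 0.67, adjusted p = 5.14e-06) and from d8 to d16 (1.92 ± 0.39, adjusted p = 0.00887), fell at d16+2-3p (-5.09 ± 0.46, adjusted p = 8.50e-09), and rose from there to d16+10p (1.48 ± 0.42, adjusted p = 0.0297), where Id3 fell. The last of these calls was lost in 6 of 17 alternatives (adjusted p up to 0.103), among them Oct4GIP alone and 3 of the 4 d16+2-3p libraries left out in turn.

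Of the ligand and receptor genes, Gdf3, a TGF-β family ligand of pluripotent cells, was at 106 to 123 CPM at d16+2-3p and 78.5 to 120 at d16+10p and at 1.90 or less in every primed and culture library. Eng, an auxiliary receptor, was at 65.9 to 84.7 CPM at d16+2-3p and 35.5 to 73.9 at d16+10p, against 2.58 and 4.75 in primed cells, 3.89 ± 0.55 higher at d16+10p (adjusted p = 1.30e-05). Bmp7, another BMP ligand, fell at d16+2-3p (-3.23 ± 0.59, adjusted p = 7.10e-05) and rose again at d16+10p (1.80 ± 0.55, adjusted p = 0.0417), as did Rgma, a co-receptor (-4.50 ± 0.58, then 1.72 ± 0.52). The second step was lost in 9 of 17 alternatives for Bmp7 (adjusted p up to 0.127) and 8 of 17 for Rgma (up to 0.137), including each d16+2-3p library left out in turn. Acvr1, a type I receptor, rose by 1.33 ± 0.26 from d16+2-3p to d16+10p (adjusted p = 0.00285). Bmpr2, the type II receptor, was 1.32 (log2, SE 0.28) lower at d16+10p than in primed cells (adjusted p = 0.000785). It was at 112 CPM in primed 129/MSM and 51.7 in primed Oct4GIP, and without the former the difference was -0.65 (adjusted p = 0.163), within Oct4GIP -0.82 (adjusted p = 0.0594).

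In the AICAR comparison 8 of these 46 genes passed, 6 higher and 2 lower, beside 3.54% and 6.06% of all genes, among them 3 secreted inhibitors. Grem1, which encodes the secreted antagonist Gremlin, was at 11.6 (Basal), 5.41 (2iL), 55.1 (AICAR) and 107 CPM (AICAR+LIF) at d8 and at 8.89, 30.2, 44.8 and 209 at d16. Both AICAR cultures were above both others at each day, with a fitted difference of 2.98 ± 0.60 (adjusted p = 0.0237). Fst, the gene of follistatin, and Bmper, a BMP-binding modulator, were higher by 1.53 ± 0.38 (adjusted p = 0.0420) and 1.42 ± 0.37 (adjusted p = 0.0488), and the ligand gene Bmp5 by 2.86 ± 0.73 (adjusted p = 0.0441). Tcf4, which encodes an E protein bound by ID proteins, was lower (-0.95 ± 0.20, adjusted p = 0.0263), as was Rgma (-1.16 ± 0.29, adjusted p = 0.0416). These calls were not stable. Of 14 alternatives, 8 lost the call for Grem1 (adjusted p up to 0.181), 9 for Fst (0.332), Bmp5 (0.192), Tcf4 (0.186) and Rgma (0.254) and 10 for Bmper (0.341), with each of the 4 d8 libraries left out among them, and the direction held in all 14. The summed mesendoderm markers were at 21.8 to 76.4 CPM in the 4 cultures with AICAR and 5.81 to 9.15 in the 4 without, and their part in these differences was not tested. Bambi, a pseudoreceptor that damps the pathway, was lower in cultures (-1.90 ± 0.51, adjusted p = 0.00657) and at d16+10p (-2.54 ± 0.51, adjusted p = 0.000524) than in primed cells.

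Some other BMP genes were also high in primed 129/MSM. How many of the listed genes differed was not counted, and Bmp2 and Grem1 were picked after their values were seen. Of genes going the other way, Gdf6 was at 0 CPM in primed 129/MSM and 8.12 in primed Oct4GIP, and Bambi at 40.9 and 52.8. Bmp2, a ligand closely related to Bmp4, was at 61.8 CPM in primed 129/MSM and 0.738 (2 counts) in primed Oct4GIP, and Grem1 was at 39.9 and 0. Prdm1, a BMP-induced gene of germ cell precursors, was at 54.2 and 0 CPM, so its lower level in cultures (-3.23 ± 0.71, adjusted p = 0.00149) came from 129/MSM alone and turned with primed Oct4GIP as the only reference.

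Genes whose log2 CPM followed a member most closely over the 22 libraries were found among 11184 genes by Pearson r. They were Bgn (0.97), Sh3kbp1 and Fjx1 for Id1, Sppl2a (0.97), Fam214b and Apcdd1 for Id2, Mfn2 (0.92), Trappc10 and Ppp1r37 for Id3, and Zfp36l1 (0.71), Tmem64 and Myo1c for Bmp4. Between members the r was 0.92 for Id1 and Id2, 0.84 for Id1 and Id3, and 0.77 for Id2 and Id3, while Bmp4 gave 0.47 with Id1 and 0.26 with Id2. In the 8 cultures alone, Smad5 gave -0.94 with Id1, against 0.90 over the 22 libraries. The points share libraries, states and depth.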

How the data were processed

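Bulk RNA-seq of 22 mouse libraries was used. From stranded mRNA libraries the authors obtained single reads, aligned these to GRCm38 transcript sequences (Bowtie2 2.2.5) and deposited whole read counts per gene, without normalization. Deposited transcript counts and detected-gene numbers were not used. Libraries were grouped by state from the labels, with no label giving a replicate of the same condition.

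Counts were fitted in edgeR 4.0.16 (R 4.3.3; quasi-likelihood test, TMM factors, filterByExpr, Benjamini-Hochberg adjustment over all genes tested, threshold 0.05). States were compared in a fit of all 22 libraries in 6 groups, and AICAR and day in the 8 cultures. Log2 CPM used a prior count of 2. Alternatives were DESeq2 1.42.0 and its size factors, no filter, other sets of libraries, other terms and each library left out. Within-line comparisons and 129/MSM against Oct4GIP at d16+10p were added after the data were seen. Functions were tested on simulated counts. No pair of libraries within a group agreed within sampling noise (chi-square per degree of freedom 1.34 to 40.8 over 40 pairs). Counting intervals are exact, at 95%, and a count of 0 was read as at most 3 counts.

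The 10 members and the gene lists were chosen with earlier results of these data known. The genes named outside the members are up to 5 per direction with an adjusted p under 0.05 and a mean log2 CPM of at least 3 from the BMP lists, and the 3 genes most alike to Id1, Id2, Id3 and Bmp4. Values of Bmp2, Grem1, Gdf6 and Bambi in primed cells were added after being seen. Positions and exon lengths are from GENCODE M21 (GRCm38).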

Additional observations from a re-analysis of the deposited data

Results flagged for a closer look

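In 40 pairs of a member and a group, 2 had a library far from the others, where chance alone flags about 1 in 20 groups. Smad6 in AICAR d16 was at 30.4 CPM, with the other d16 cultures at 7.64 to 11.3. Smad5 in AICAR d16+10p was at 60.8 CPM, with the other d16+10p libraries at 40.5 to 45.7. The change from primed to d16+10p differed between 129/MSM and Oct4GIP by the interaction term for Smad5 (-1.62), Id1 (-4.51), Id2 (-6.95) and Id3 (-7.51 on the log2 scale), each resting on 1 primed library per line.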

How the results depend on the processing

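No paired analysis by replicate number was possible because the labels give none. Blocking the 4 treatments gave 7 members called in d16 against d8 beside 5, adding Smad6 and Smad7. DESeq2 size factors left the members' counts within 1.5 times in every comparison, and Id1 in cultures against primed then passed (1.52, adjusted p = 0.0437). Without the filter, 1 member passed for AICAR, 1 for the AICAR effect by day (Msx2 in both) and 2 for 129/MSM against Oct4GIP at d16+10p. Without the 3 libraries of lowest total, 3 passed in d16 against d8. For d16+10p against primed, 3 passed with only the groups compared and 1 within Oct4GIP, by either fit. With only Oct4GIP, 4 passed for d16+10p against d16+2-3p. With libraries left out in turn, members called ranged from 3 (without primed Oct4GIP) to 7 for cultures against primed, from 1 (without primed 129/MSM) to 6 for d16+10p against primed, and from 0 (without either 129/MSM library) to 2 for 129/MSM against Oct4GIP. With Oct4GIP as the only primed library 3 genes turned. In d16+10p against primed, Id2 became 1.41 within Oct4GIP by either fit and ranged from -2.73 to 1.0 with primed libraries left out, and Id3 became 4.58 and ranged from -2.44 to 4.42. In cultures against primed, Prdm1 became 5.93 and 5.98 and ranged from -4.23 to 5.94. The cause was not tested.

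Counts over all genes moved more: AICAR 1347 against 3143 (no filter), 2140 (DESeq2), 37 (no term for the day), 2642 (all 22 libraries), 0 (without the 3 lowest totals) and 245 to 2654 (libraries left out); its effect by day 28 against 1146 (no filter); cultures against primed 7032 against 4595 and d16+10p against d16+2-3p 1753 against 3002 (only the groups compared); d16 against d8 4383 against 2590 (no term for AICAR); d16+10p against primed 6863 against 3370 (within 129/MSM). Levels under about 3 counts, as in Id1, Id2 and Msx2 of reverted cells, limit those fold changes.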
